A study of Oryza sativa with 2 samples.

Results

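The genes described here are 5 rice genes of the cold response: 3 DREB1 genes, 1 cold-related MYB gene and 1 gene entered as a trehalose-phosphate phosphatase of cold tolerance. They were found by identifier in a list of binding sites of the transcription factor OsbHLH002, and all 5 were among the 14709 genes of that list. The plants were Oryza sativa of the line Osbhlh002-1 gOsbHLH002-3FLAG, that is, an Osbhlh002-1 mutant background with a genomic OsbHLH002 transgene that carries a 3FLAG tag. There was 1 library of DNA pulled down with a FLAG antibody (the IP) and 1 from the input DNA of the same line, and the input enters only as the background of the peaks. Tissue, stage and temperature were not given in the sources used here; hence the plants cannot be called cold-treated or untreated, and no plant without the tag was analysed here.

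OsbHLH002 is a basic helix-loop-helix protein, and the deposited annotation describes its gene as an inducer of CBF expression. In Arabidopsis the protein of that name switches on the CBF genes, also called DREB1, when plants are chilled. DREB1 proteins are AP2-type activators that bind dehydration-responsive elements in the promoters of cold and drought genes. Trehalose-phosphate phosphatases remove the phosphate from trehalose 6-phosphate, a sugar signal, to give trehalose.

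All 5 genes carried a peak of IP over input, and 4 of them were well above the middle of the list in strength. The median fold enrichment of the 5 was 5.49, against 3.13 over all gene entries. A fold of 4 or more was reached by 4 of the 5 genes, whereas 27.6% of all 14709 entries reached it. All 5 had a q of 0.05 or less, as did 90.1% of all entries. The list holds only genes with a peak, and the 5 genes were chosen with earlier results of these data known, so these counts describe the 5 genes and are not tested. With 1 IP there was no replicate: the intervals given below are exact 95% Poisson intervals of the IP fragments at a summit and cover counting error only.

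**Figure D1:**
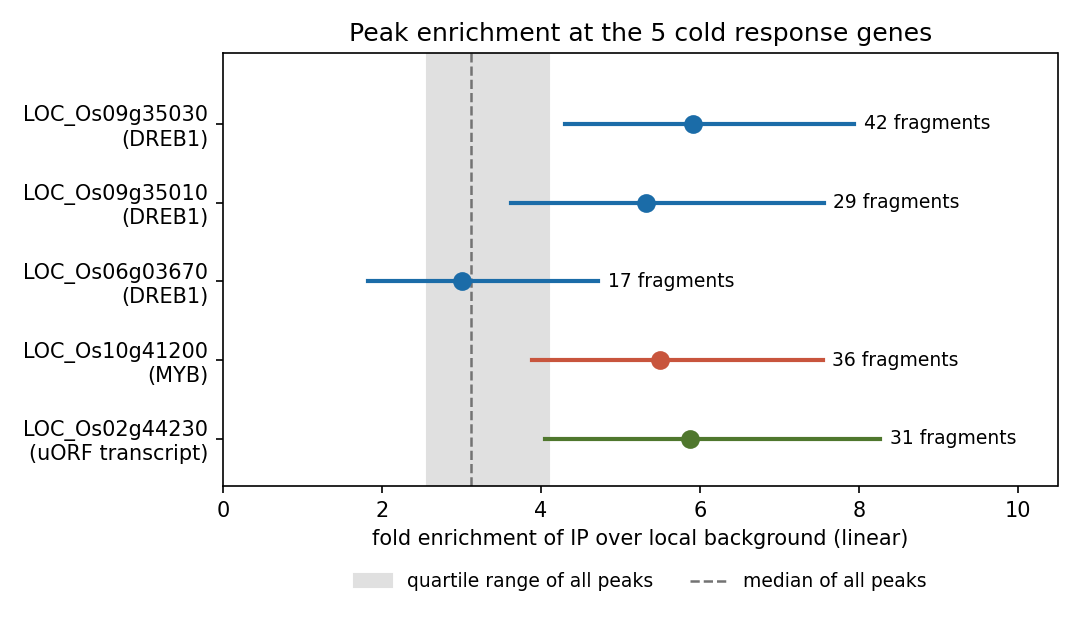
Fold enrichment of the peak on each of the 5 genes (points) with the exact 95% Poisson interval of its IP fragments (bars), on a linear axis; the grey band runs from the lower to the upper quartile, and the dashed line is the median, of all 12487 peaks. LOC_Os09g35030, LOC_Os09g35010, LOC_Os10g41200 and LOC_Os02g44230 lie between 5.32 and 5.91, to the right of the band, and LOC_Os06g03670 lies at 3.01, just under the median of 3.13.

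The DREB1 gene LOC_Os09g35030 had the strongest peak of the 5. The gene occupies 20403149 to 20404332 of chromosome 9 and is read from the minus strand. Its peak, 1003 bp wide, spanned 20405367 to 20406369. The summit held 42 IP fragments over a local background of 6.28, a fold of 5.91 (interval 4.30 to 7.94), and the −log10 q was 18.1. This placed it among the top 7.78% of the distinct peaks by fold and the top 5.83% by fragments. The summit lay 1495 bp upstream of the gene start, and the nearest edge of the peak was 1035 bp from the start. The whole peak was therefore upstream of the gene and clear of its transcribed part.

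The DREB1 gene LOC_Os09g35010, on the same strand from 20395224 to 20396205, had a peak at its other end. Its peak spanned 20393888 to 20394757 (870 bp), and 844 bp separated the summit from the 3′ end that it had passed. The summit held 29 IP fragments over a background of 4.64, a fold of 5.32 (interval 3.62 to 7.56), and the −log10 q was 11.6. No listed peak touched the gene itself or the 1 kb to either side of its start. Among all entries the summit was past the 3′ end in 9.77%, and among genes of 1200 bp or less, where the window of 2 kb extends past the gene, in 31.1%. All 3 DREB1 genes were that short, and 1 of the 3 had its summit there, which is a share near that background.

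The DREB1 gene LOC_Os06g03670 had the weakest peak. It occupies 1434731 to 1435857 of chromosome 6, plus strand. Its peak of 374 bp spanned 1432787 to 1433160, and its summit was 1770 bp ahead of the gene start. The summit held 17 IP fragments over a background of 4.98, a fold of 3.01 (interval 1.82 to 4.72), and the −log10 q was 3.27. A fold at least as high was found in 53.9% of all peaks, and a fragment number at least as high in 68.6%. Its fold interval overlapped those of the other 4 genes, the lowest bounds of which ran from 3.62 to 4.30. The fragment counts themselves were further apart from the strongest gene: 9.90 to 27.2 fragments at LOC_Os06g03670 and 30.3 to 56.8 at LOC_Os09g35030.

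The MYB gene LOC_Os10g41200 was the one gene of the 5 with its assigned peak across the gene start. It is described as a MYB family transcription factor gene and occupies 22128439 to 22131669 of chromosome 10, minus strand. The peak spanned 22131359 to 22131997 (639 bp): its summit was 68 bp ahead of the gene start, and 311 bp of it were inside the gene. The summit held 36 IP fragments over a background of 5.73, a fold of 5.49 (interval 3.89 to 7.55), and the −log10 q was 14.6. By fold it ranked 9 among the 69 entries described in the same words, which had a median fold of 3.40.

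LOC_Os02g44230, the gene entered as the trehalose-phosphate phosphatase, had a peak about as strong as that of LOC_Os09g35030. The deposited annotation describes it only as a transcript with a conserved peptide uORF, a short reading frame ahead of the main one, so its enzyme name rests on the choice of genes and not on the list. It occupies 26767603 to 26771633 of chromosome 2, minus strand, and its assigned peak spanned 26772968 to 26773769 (802 bp). The summit, 1457 bp upstream of the start, held 31 IP fragments over a background of 4.44. That is the genome-wide background, the lowest in the list, and 3257 peaks had it. The fold was 5.88 (interval 4.06 to 8.27), and the −log10 q was 13.7. The same number of fragments, with a background equal to within 0.001, occurred at 31 peaks of the list. Among the 26 entries described as transcripts of this kind its fold ranked 4, and their median fold was 3.72.

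**Figure D2:**
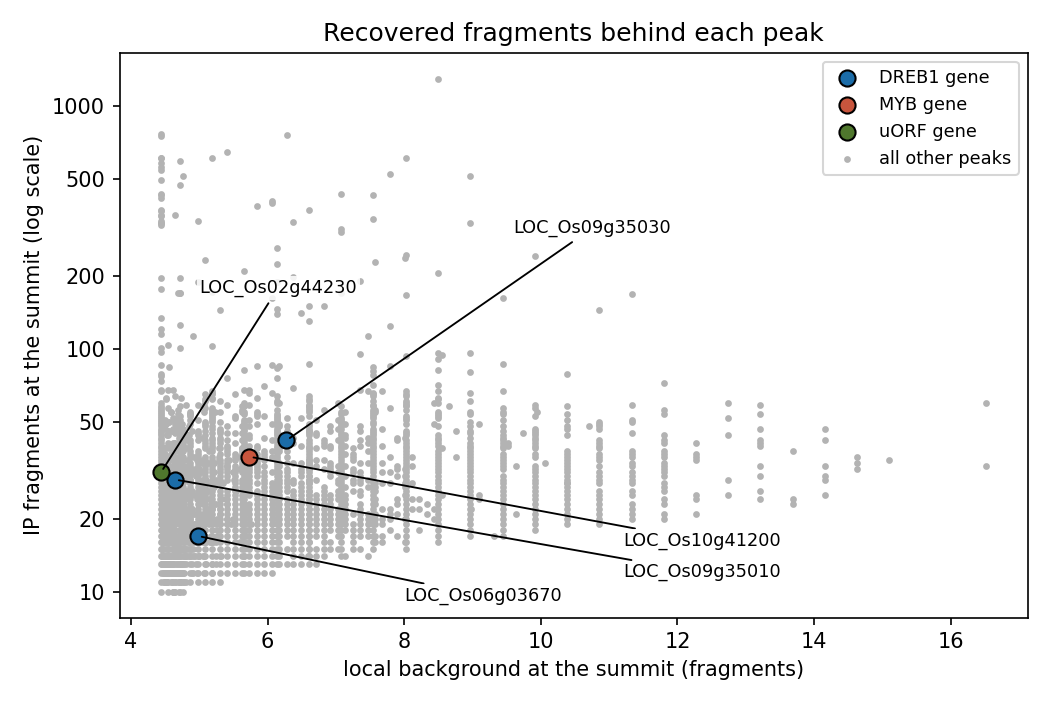
IP fragments at the summit (log scale) against local background (linear scale) for 12486 peaks (grey) and for the 5 genes (coloured). LOC_Os09g35030 has the most IP fragments of the 5, 42, and also the highest background, 6.28. LOC_Os02g44230 reaches nearly the same fold with 31 fragments at the genome-wide background, 4.44, the lowest in the list.

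The local backgrounds of the 5 genes ran from 4.44 to 6.28 fragments, on both sides of the median of 5.19 over all peaks. Their IP fragments had a wider spread, from 17 to 42, with a median of 31 against 20 over all peaks. The median peak width was 802 bp for the 5 genes and 445 bp for all peaks, and only the peak of LOC_Os06g03670, at 374 bp, was narrower than 445 bp. None of the 5 peaks was shared with another gene entry, whereas 29.6% of all entries shared theirs. An unshared peak need not belong to a single gene, because the list puts only a single peak on each gene. The peak of LOC_Os02g44230 also crossed the start of LOC_Os02g44240, which was listed with another peak.

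Most of the peaks assigned to these genes stood away from the gene start. Each gene carried a single peak in the list, so this does not show that no peak was nearer. A nearer peak could be listed under a neighbour, as at LOC_Os02g44230 and LOC_Os09g35030, or have no entry. The assigned peak reached within 1 kb of the start in 1 of the 5 genes, LOC_Os10g41200, whereas 71.8% of all entries had a peak that close. Summits lay upstream of the start in 4 of the 5 genes and in 63.2% of all entries. Of these, the summits of LOC_Os09g35030, LOC_Os06g03670 and LOC_Os02g44230 lay 1 to 2 kb upstream, a stretch that held the summits of 18.4% of all entries. The peak of LOC_Os09g35030 was close to the limit of 1 kb, at 1035 bp, and those of LOC_Os02g44230, LOC_Os09g35010 and LOC_Os06g03670 were 1335, 1448 and 1571 bp from the start at their nearest edge.

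**Figure D3:**
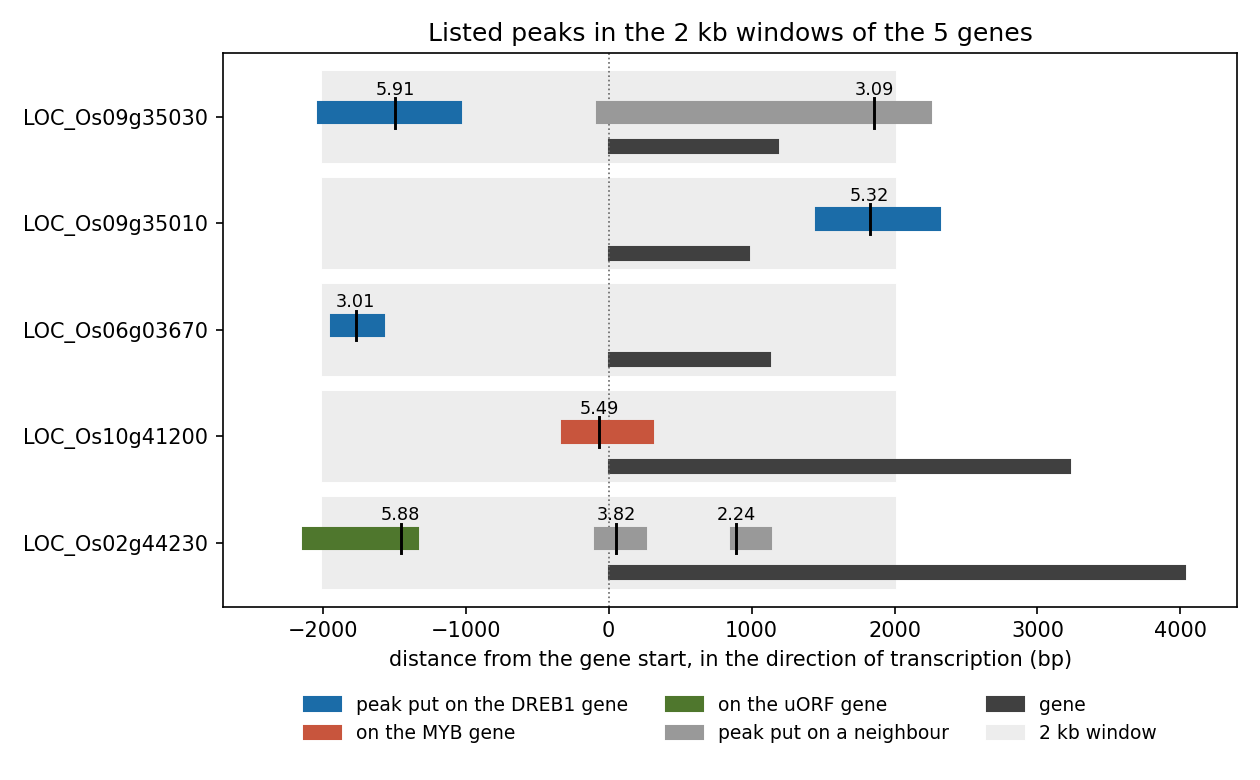
Listed peaks that overlap the window of 2 kb to either side of each gene start (grey panels), drawn by distance from the start in the direction of transcription in bp; coloured bars are the peaks put on the 5 genes, grey bars those put on neighbouring genes, black ticks are summits and numbers are folds. Of the 5 coloured peaks, that of LOC_Os10g41200 crosses the start. Grey peaks of fold 3.82 and 3.09 cross the starts of LOC_Os02g44230 and LOC_Os09g35030.

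The 1 kb nearest the start gave a different picture of strength. Taking for each gene the strongest listed peak that overlaps the 1 kb to either side of its start, whichever gene it had been put on, LOC_Os10g41200 stayed at a fold of 5.49. LOC_Os02g44230 then had a fold of 3.82 and LOC_Os09g35030 a fold of 3.09. The peak of fold 3.09 crossed that start and covered 1083 bp of the 1 kb to either side of it. Its summit, where the fold was taken, was nevertheless 1858 bp downstream. LOC_Os09g35010 and LOC_Os06g03670 had no listed peak within 1 kb of their starts. A fold of 4 or more was thus met by 1 of the 5 genes, against 20.2% of all entries. In the wider window the strongest listed peak was the assigned one for all 5 genes. This could differ only for genes with 2 or more listed peaks in that window, which were 804 of all entries (5.47%). A stronger listed peak than the assigned one was found in 443 of all entries (3.01%). LOC_Os09g35010, LOC_Os06g03670 and LOC_Os10g41200 had only 1 listed peak in that window, so their result was fixed.

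At LOC_Os02g44230 the peak at the start was listed under the neighbouring gene. LOC_Os02g44240, an expressed protein gene on the same strand, begins upstream at 26773638 and ends 992 bp before the start of LOC_Os02g44230. The peak put on LOC_Os02g44240 ran from 26771371 to 26771727 and had its summit 2055 bp downstream of that gene's own start but 50 bp downstream of the start of LOC_Os02g44230. It held 21 IP fragments over a background of 4.76, a fold of 3.82, and the −log10 q was 5.80. Conversely, the stronger peak put on LOC_Os02g44230 covered 671 bp of LOC_Os02g44240, and its summit was inside that gene, 548 bp downstream of its start. Another peak, put on LOC_Os02g44235, lay inside LOC_Os02g44230 with its summit 892 bp downstream of the start, at a fold of 2.24. LOC_Os02g44235 is an overlapping gene model with the same 3′ end, so a peak there cannot be given to a single model. All 3 peaks at this locus had an entry and consecutive peak numbers.

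The chromosome 9 genes LOC_Os09g35010 and LOC_Os09g35030 flank LOC_Os09g35020, described as an AP2 domain gene, in a tandem cluster of 9109 bp on the minus strand. Every one of these 3 genes had an entry. The peak put on LOC_Os09g35020 was the widest of the cluster, at 2340 bp from 20402075 to 20404414, and covered the whole 1184 bp of LOC_Os09g35030. Its summit held 24 IP fragments over a background of 7.08, a fold of 3.09 (interval 2.03 to 4.54), and the −log10 q was 4.67. That summit lay 2211 bp upstream of the start of LOC_Os09g35020 and 675 bp past the 3′ end of LOC_Os09g35030, in the space between them. Only 952 bp separated this peak from the stronger one upstream of LOC_Os09g35030, so that 76.2% of the window of LOC_Os09g35030 was in listed peaks. For the other 4 genes that share was between 9.35 and 32.7%.

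**Figure D4:**
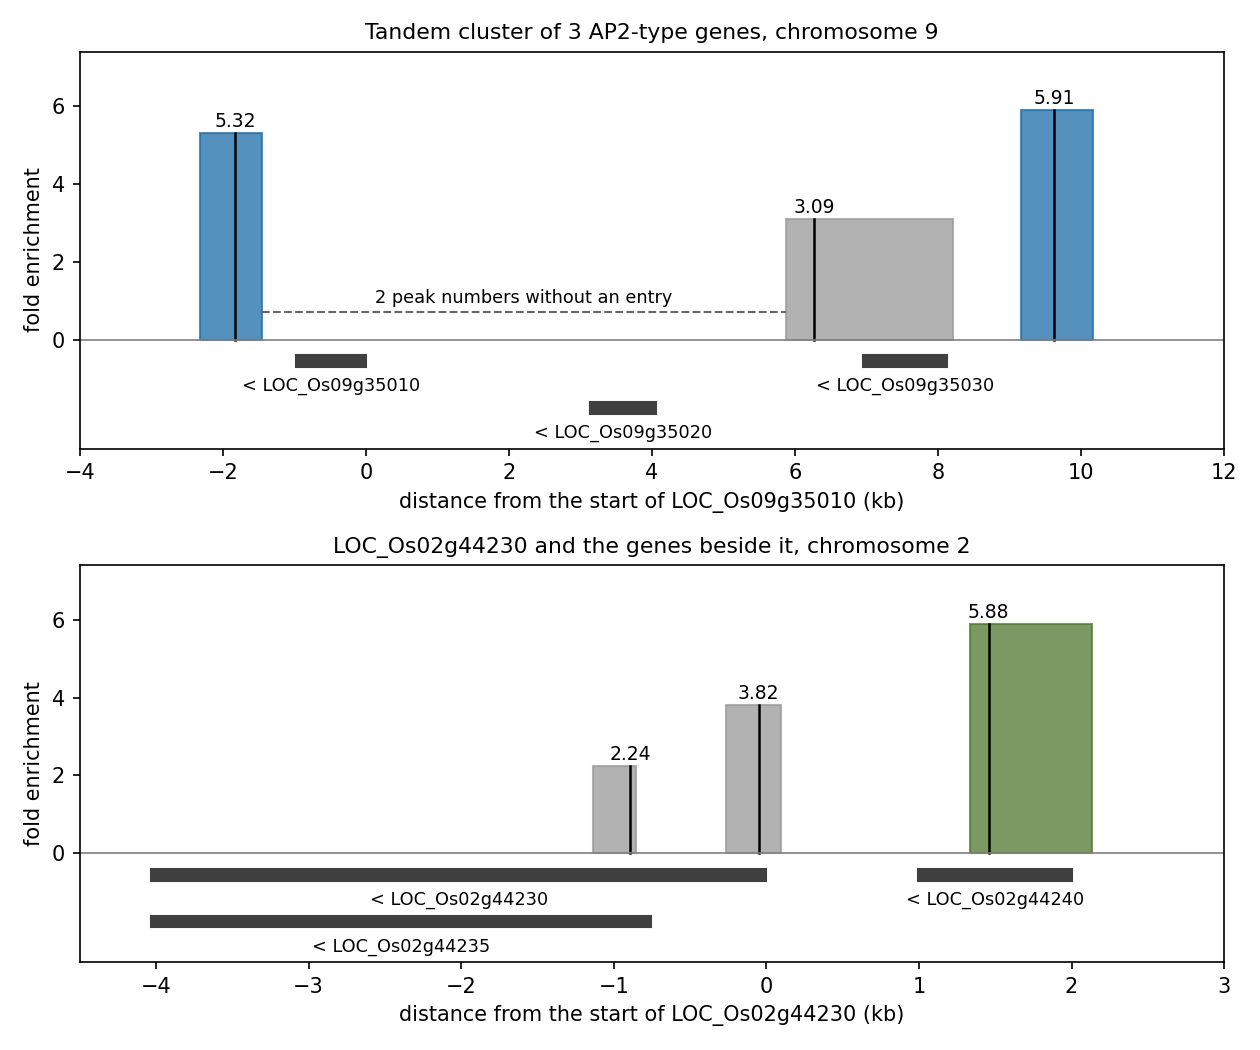
Fold enrichment (linear axis) of the listed peaks at 2 loci, drawn by distance in kb from the start of LOC_Os09g35010 (top) and of LOC_Os02g44230 (bottom); bars span each peak, black lines mark summits, dark boxes are genes and < marks the minus strand. Coloured bars are the peaks put on LOC_Os09g35010 (5.32), LOC_Os09g35030 (5.91) and LOC_Os02g44230 (5.88), grey bars those put on their neighbours (3.09, 3.82 and 2.24).

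Peak numbers without an entry fell between the listed peaks within 20 kb of 4 of the 5 genes. Numbers beyond the outermost of those listed peaks were not looked up, so more could lie within 20 kb of any of the 5 genes. The numbers rose along each chromosome, the highest was 22071, and 9584 were not in the list. Between the peaks of LOC_Os09g35010 and LOC_Os09g35020 these were the 2 numbers 21792 and 21793. Any peaks that carried them lay between 20394757 and 20402075, a stretch that holds the bodies of LOC_Os09g35010 and LOC_Os09g35020. The windows of these genes cover it except for 57 bp, and the narrowest peak of the list was 229 bp, so such peaks would overlap a window. Each gene carried a single peak in the list. Another 4 numbers, 16415 to 16418, had no entry between 1433160 and 1452997, a stretch that holds the whole of LOC_Os06g03670. A further 3, 4620 to 4622, had none between 22131997 and 22147880, which begins at the upstream edge of the LOC_Os10g41200 peak. Where any peaks with these numbers lay within those stretches is unknown, and they were not analysed here. The 3 genes of the chromosome 9 cluster belong to one gene family, and alignment filters were not given in the sources used here; fragments from near-identical stretches could therefore have been placed at more than one of them.

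Around LOC_Os10g41200 and LOC_Os06g03670 the other listed peaks were farther away, and the distances below leave out any peaks with the missing numbers. Within 20 kb of LOC_Os10g41200 there were 4 more listed peaks, the nearest of which was shared by LOC_Os10g41190, a transporter family gene, and LOC_Os10g41180. It had a fold of 4.08, and its summit was 7705 bp from the start of LOC_Os10g41200. LOC_Os10g41170, a dehydrogenase gene, had a fold of 2.42 and LOC_Os10g41230, a homeobox leucine zipper gene, one of 2.85. LOC_Os10g41224, an expressed protein gene, had the strongest of these peaks, at 6.46-fold, centred 16455 bp from the start of LOC_Os10g41200. Near LOC_Os06g03670 the strongest listed peak was that of LOC_Os06g03690, an RNA recognition motif gene, at 6.90-fold and 18545 bp away by its summit. LOC_Os06g03650 (fold 4.60) and LOC_Os06g03660, a peroxisomal biogenesis factor gene (2.76), had summits 11970 and 9891 bp away.

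Other genes of the DREB type were also in the list, some with stronger peaks. Including the 3 DREB1 genes, 7 entries were described as dehydration-responsive element-binding proteins, with folds from 2.45 to 8.82 and a median of 5.32. A fold of 4 or more was reached by 5 of the 7, against 27.6% of all entries. Outside the 5 genes described here it was reached by 3 of 4. LOC_Os02g45450 was highest, with 47 IP fragments, a fold of 8.82 (interval 6.53 to 11.7) and its summit 330 bp upstream of the start. LOC_Os08g43200 followed at 8.54, with its summit 913 bp past its 3′ end, the side on which LOC_Os09g35010 had its own. The intervals of both lay wholly above that of LOC_Os06g03670 (1.82 to 4.72) and overlapped those of LOC_Os09g35030 and LOC_Os09g35010. For LOC_Os04g48350 the fold was 4.80 and the summit 1661 bp upstream, and for LOC_Os01g73770 they were 2.45 and 108 bp. For comparison, the 70 entries described as AP2 domain genes had a median fold of 3.55.

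Of 23 further genes of the cold pathway, listed from general knowledge, 17 (73.9%) had an entry, with a median fold of 3.59. A fold of 4 or more was met by 8 of the 17, against 27.6% of all entries. The share of all rice genes with an entry was not computed here, so no background stands beside the 17. LOC_Os02g45450, LOC_Os08g43200 and LOC_Os04g48350 were among these 8. LOC_Os01g07120, an AP2 domain gene, had a fold of 7.75 and its summit 2021 bp upstream. LOC_Os03g17700, described as a kinase of the MAPK class, reached 6.60-fold in a peak of 2428 bp that had its summit 220 bp upstream. LOC_Os01g62410, a MYB family gene, had a fold of 6.45. The AP2 domain genes LOC_Os08g43210 and LOC_Os06g06970 had folds of 5.52 and 5.33, the first 131 bp upstream of its start and the second 849 bp past its 3′ end. The gene for OsbHLH002, LOC_Os11g32100, was in this list with the lowest fold, 1.06. No solution was found for it among the whole fragment numbers tried. At a fold so close to 1, its −log10 p of 22.7 needs more IP fragments than the largest number tried, over a background nearly as high. The exact fragments and background of this gene are unknown. Its −log10 q was 19.6, above that of each of the 5 genes. A q depends on the number of fragments as well as on the fold, so this value does not show strong enrichment there.

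**Figure D5:**
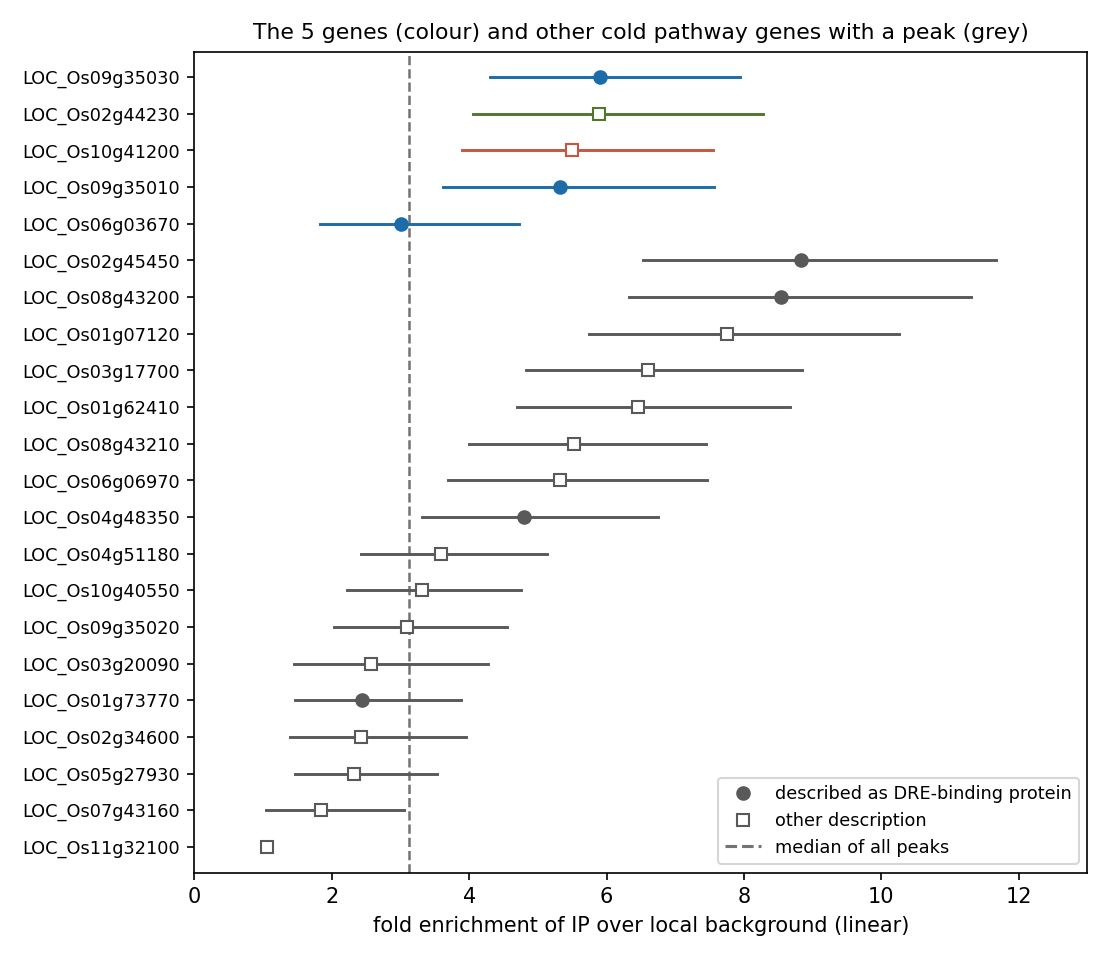
Fold enrichment (linear axis) with exact 95% Poisson intervals for the 5 genes (colour) and, in grey, the 17 further cold pathway genes with an entry; filled circles are genes described as DRE-binding proteins, open squares other descriptions, and the dashed line is the median of all peaks. LOC_Os02g45450 and LOC_Os08g43200 are highest at 8.82 and 8.54, and LOC_Os11g32100 is lowest at 1.06, drawn without an interval.

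Genes named by wording for the same pathways were mixed. Of 6 entries described with trehalose, none as a phosphatase, 2 had a fold of 4 or more, against 27.6% of all entries. LOC_Os02g54820, a trehalose-6-phosphate synthase gene, had 5.47 with its summit 172 bp upstream, and LOC_Os05g44100, a trehalose synthase gene, had 4.995. LOC_Os01g53000, the next, had 2.52, and the median of the 6 was 2.51, against 5.88 for LOC_Os02g44230. Of 3 entries described with the word cold, LOC_Os05g49170, a cold acclimation protein gene, reached 5.25-fold, 213 bp upstream of its start. LOC_Os02g52820, a cold-induced protein gene, had 2.76, and LOC_Os03g55850, another cold acclimation protein gene, had 2.50.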

How the data were processed

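Chromatin bound by FLAG-tagged OsbHLH002 and its input were sequenced, 1 library each. Per the labels' protocols, tissue was fixed with 1% formaldehyde for 15 min and sonicated to 300 to 500 bp. MACS2 2.2.7.1, Bowtie2 2.4.2, Picard and SAMtools are the tools named, per the submitters' processing notes. Build, annotation release, filters and the threshold for peaks were not given in the sources used here. What the authors deposited is 1 peak list joined to genes within 2 kb of their start. The deposited fold divides IP by local background on a linear scale, with 1 added to each (a ratio), and the deposited p-values and q-values are −log10. The deposited score repeats the −log10 p and was not analysed.

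Coordinates are as deposited, counted from 1. Summit fragments and background were recovered by solving each deposited fold and Poisson p for a whole number of fragments, with a tolerance on −log10 p of 0.0001 times its value plus 0.0002, and 12486 of 12487 peaks had 1 solution. Only this recovery was tested on simulated data, made with the same fold and Poisson formulas that it solves and over a limited range of fragment numbers. Python 3.11.15, pandas 2.3.3, NumPy 2.4.6, SciPy 1.17.1 and matplotlib 3.10.9 were used. The median summit held 20 IP fragments over a background of 5.19, and library totals were not given in the sources used here. Fragments carry no molecular identifiers, so intervals cover counting error only.

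The members, the list of 23 further genes and the fold of 4 were chosen with earlier results of these data known. Named were all 5 genes, every entry with a peak within 20 kb of one, up to 8 genes of the further list and up to 3 of each wording (dehydration-responsive element-binding, trehalose, inducer of CBF, cold), by fold. LOC_Os01g73770 was added as the remaining gene of its wording after its value was seen, as were the comparisons with genes past the 3′ end, with short genes and with the MYB, AP2 and uORF wordings. No identifier matched the reference gene table (0 of 14709), and no sequence of the build was used here, so motifs were not searched.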

Additional observations from a re-analysis of the deposited data

How the results depend on the processing

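The folds were recomputed with nothing added to pileup and background, over the genome-wide background, and with the strongest listed peak within 2 kb or within 1 kb of the start. The values of all 5 genes stayed within their counting intervals under the first 3 settings. For LOC_Os09g35010, LOC_Os06g03670 and LOC_Os10g41200 the 2 kb setting could not differ, since each had only 1 listed peak in that window. Within 1 kb, the fold was 3.09 for LOC_Os09g35030 and 3.82 for LOC_Os02g44230, both under their intervals, since another peak is then read, and no value exists for LOC_Os09g35010 and LOC_Os06g03670. The number of genes with a fold of 4 or more was 1 in place of 4 within 1 kb, and 4 at a q of 0.01 or less or with nothing added. The median fold of the 5 ran from 5.41 to 5.69 when each gene was left out in turn. Ranks by gene entry, at a q of 0.05 or less, by pileup or by −log10 q stayed within the range that the counting interval of each fold allows, and 4 summits were upstream also with the strongest peak. With a q of 0.05 or less, 69.6% of the further cold genes had an entry. No paired analysis was possible because there was 1 IP and 1 input and no test between samples. At 17 fragments the fold of LOC_Os06g03670 has an interval that overlaps those of the other 4 genes, and the differences themselves were not tested. Its fragment interval does not overlap that of LOC_Os09g35030.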
